A study of Mus musculus with 12 samples.

Results

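Adipokines are proteins that fat secretes into the blood or the tissue around it, and 8 of their genes were followed here in gonadal white fat: leptin (Lep), adiponectin (Adipoq), resistin (Retn), retinol binding protein 4 (Rbp4), adipsin or complement factor D (Cfd), chemerin (Rarres2), nicotinamide phosphoribosyltransferase (Nampt) and apelin (Apln). The members are all probes on the array whose RefSeq accession names one of these genes, which gave 9 probes for the 8 genes, out of 55681 distinct probes and 20887 named genes. Retn had 2 probes and every other member 1. All 9 probes were well above background on all 12 arrays, and none was saturated on any of them, so that no member was lost to a filter on low values.

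The study asked how fat changes in male C57BL/6N mice that lack Gadd45a, Ing1 or both. Ing1 encodes a reader of a methylated histone mark at active promoters. Gadd45a is induced by stress and takes part in the repair and the demethylation of DNA. Germline Gadd45a and Ing1 mutants were interbred, so the genes are missing from all tissues and not from fat alone. The 4 groups are wild type (WT), Gadd45a-/- (Gadd45a-KO), Ing1-/- (Ing1-KO) and Gadd45a-/-;Ing1-/- (DKO), aged 59 to 67 days, with no treatment given. Total RNA from 3 animals was pooled for each array, and 3 arrays, or 9 animals, stand for each genotype. The 12 arrays are 1-colour Agilent arrays, and replicates 1, 2 and 3 lie on 3 slides that hold all 4 genotypes each.

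Leptin signals the size of the fat stores to the brain and lowers food intake, while adiponectin raises insulin sensitivity and fat burning in liver and muscle. Resistin and retinol binding protein 4 are linked to insulin resistance in mice, adipsin is a protease of the alternative complement pathway, chemerin attracts leukocytes and acts on fat cell differentiation, and apelin acts on vessels and heart. NAMPT is the rate-limiting enzyme of NAD salvage and is made in most cells; its secreted form is known as visfatin. Adipoq, Retn, Cfd and Lep are made mainly by mature fat cells in white fat, whereas Nampt, Rarres2, Rbp4 and Apln are also made in other tissues.

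Values below are log2 of the scanner's background-subtracted signal after every array was shifted to the same 75th percentile; 1 unit is a 2-fold difference, and levels of different probes are not set against each other. Between 58.2% and 68.1% of the spots of an array were well above background, and WT replicate 2 was the dimmest array. The Ing1 probe lay between 9.13 and 9.60 in the 6 arrays labelled as lacking Ing1 and between 12.37 and 12.78 in the other 6. The Gadd45a probe was higher, at 10.05 to 10.62, in the arrays labelled as lacking Gadd45a than in the others, at 9.06 to 9.80, so it does not check those labels, and where it lies relative to the deletion is not given in the sources used here. White fat was recognisable in every library: all 12 white adipocyte markers, such as the lipid droplet coat gene Plin1, were well above background on all 12 arrays, and 6 of 7 epididymis markers were below the filter. Marker lists of other cells, several of which differed between groups, are described after the members.

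Lep was highest without Ing1. Its probe, spotted 10 times on each array, read 11.19, 11.06 and 11.49 in WT, 11.07, 11.18 and 10.48 in Gadd45a-KO, 11.49, 11.61 and 11.96 in Ing1-KO, and 12.46, 12.55 and 11.72 in DKO. The order of the means was Gadd45a-KO (10.91 ± 0.38, SD, n = 3), WT (11.25 ± 0.22), Ing1-KO (11.68 ± 0.24) and DKO (12.25 ± 0.45). All 3 DKO arrays were above all WT and Gadd45a-KO arrays, whereas the highest WT array and the lowest Ing1-KO array met at 11.49, and DKO replicate 3 lay within the Ing1-KO range. Over both Gadd45a backgrounds, 6 arrays without Ing1 against 6 with it, Lep rose 1.85-fold, a log2 fold change of 0.89 ± 0.17 (SE) with an adjusted p of 0.0107. Within the 3 slides the same difference lay between 0.85 and 0.96, and the call held whichever single array was left out. The tissue is bulk fat, in which more cells of a type and more RNA per cell cannot be told apart.

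The gain in Lep was resolved against Gadd45a-KO and not against WT. In DKO against Gadd45a-KO Lep rose 2.53-fold, by 1.34 ± 0.24 with an adjusted p of 0.0116, and by 1.24 to 1.39 within the slides. With only those 6 arrays in the fit the adjusted p was 0.0506. In DKO against WT the log2 fold change was 1.00 ± 0.24 with an adjusted p of 0.0746, and it was positive on all 3 slides, with the lowest value, 0.23, on slide 3. Without DKO replicate 3 the value was 1.26 with an adjusted p of 0.0173. Against WT, Ing1-KO had 0.44 ± 0.24 and Gadd45a-KO -0.34 ± 0.24, with adjusted p of 0.627 and 1.00. DKO against Ing1-KO had 0.56 ± 0.24 and an adjusted p of 0.948.

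Nampt separated the arrays by Ing1 without overlap. It read 11.55, 11.43 and 11.62 in WT and 11.64, 11.68 and 11.43 in Gadd45a-KO. In Ing1-KO it read 12.15, 12.33 and 12.41, and in DKO 12.39, 12.28 and 12.36. The lowest array without Ing1 was thus well above the highest with it, while WT and Gadd45a-KO overlapped, as did Ing1-KO and DKO. Over both backgrounds Nampt rose 1.69-fold, by 0.76 ± 0.08 with an adjusted p of 0.0013. The effect of Ing1 loss was the same size with Gadd45a present, 0.76 ± 0.11, and absent, 0.76 ± 0.11, and the difference between them was -0.00061, with a 95% interval from -0.33 to 0.33. Adjusted p was 0.00742 in DKO against Gadd45a-KO, 0.0335 in DKO against WT, where the log2 fold change was 0.81 ± 0.11, and 0.0712 in Ing1-KO against WT. The call in DKO against WT was lost in 8 of 12 fits that left out 1 array, with values from 0.76 to 0.85 and adjusted p up to 0.142. The 8 arrays were numbers 1 and 2 of Gadd45a-KO and of DKO, numbers 1 and 3 of WT and numbers 2 and 3 of Ing1-KO. DKO against Ing1-KO and Gadd45a-KO against WT each had 0.05 ± 0.11, with 95% intervals of -0.19 to 0.28 in both.

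**Figure D1:**
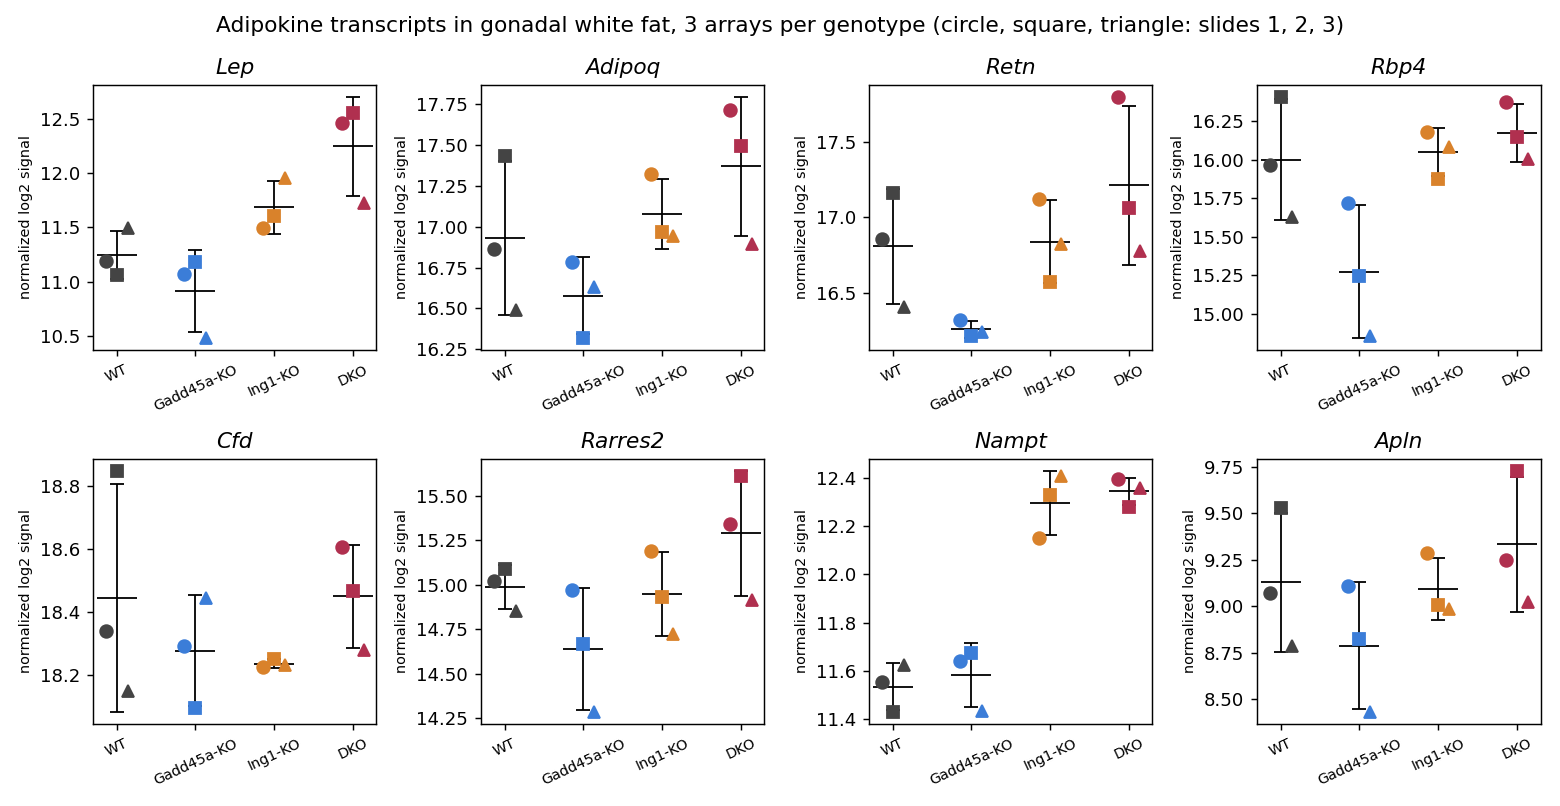
Normalized log2 signal of the 8 adipokine genes on each of the 12 arrays, by genotype (horizontal axis) and slide (symbol); the horizontal line is the mean of 3 arrays and the bar is 1 SD on each side. In the Nampt panel the 6 arrays without Ing1, at 12.15 to 12.41, lie above the other 6, at 11.43 to 11.68. Axes differ between panels and do not start at 0.

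The RefSeq promoters of Lep and Nampt, the members whose calls in the comparison by Ing1 held whichever array was left out, are shown beside that of Adipoq, whose call there differed between normalizations, so that the difference in their letters can be read. Each runs from 250 bases before to 50 bases after the annotated start (GRCm38.p6), 5′ to 3′ on the gene's own strand, and capitals mark matches on either strand to the motifs searched. No match in a member's window overlapped another. The 4 motifs were the TATA box with the letters TATAAA, the C/EBP site of the bZIP factors that drive fat cell differentiation with TTGCNNAA, the E-box with the letters CACGTG and the GC box with the letters GGGCGG.
Lep, chr6:29059971-29060270, plus strand: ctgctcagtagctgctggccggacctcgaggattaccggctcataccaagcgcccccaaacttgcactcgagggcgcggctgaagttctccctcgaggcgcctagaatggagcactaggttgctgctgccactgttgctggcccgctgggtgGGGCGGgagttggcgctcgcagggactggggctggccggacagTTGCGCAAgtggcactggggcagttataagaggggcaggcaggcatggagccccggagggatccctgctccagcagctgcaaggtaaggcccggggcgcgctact
Nampt, chr12:32820085-32820384, plus strand: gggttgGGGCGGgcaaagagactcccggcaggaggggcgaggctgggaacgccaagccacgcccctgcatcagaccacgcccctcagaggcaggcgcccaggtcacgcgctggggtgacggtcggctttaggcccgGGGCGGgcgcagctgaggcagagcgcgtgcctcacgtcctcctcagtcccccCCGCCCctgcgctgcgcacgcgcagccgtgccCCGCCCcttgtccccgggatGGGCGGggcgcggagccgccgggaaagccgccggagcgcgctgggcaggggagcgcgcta
Adipoq, chr16:23146286-23146585, plus strand: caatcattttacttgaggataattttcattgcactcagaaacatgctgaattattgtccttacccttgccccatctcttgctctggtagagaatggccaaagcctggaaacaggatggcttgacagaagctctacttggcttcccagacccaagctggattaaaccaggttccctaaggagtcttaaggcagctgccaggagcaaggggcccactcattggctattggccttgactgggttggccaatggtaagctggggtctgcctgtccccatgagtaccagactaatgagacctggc
The Lep window held 1 C/EBP match, TTGCGCAA, that begins 55 bases before the start, and 1 GC box 98 bases before it. The Nampt window held 5 GC boxes, between 244 and 10 bases before the start, and a GC content of 76.3%, against a median of 52.7% over 32851 RefSeq promoters. The Adipoq window held none of the 4 motifs. Of the 32851 promoters of this length, 10.8% hold the C/EBP letters, 35.7% the GC box, 13.6% the TATA box and 7.15% the E-box. Of the other members, Retn and Cfd held no match, Apln held 1 GC box, and Rbp4, with 2 annotated starts, held a TATA box, a C/EBP match and 2 GC boxes at one of them. In all, 7 of the 8 members were matched to a promoter; the other is Rarres2. A match is a run of letters and not evidence of binding.

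The insulin-sensitising hormone gene Adipoq was lowest in Gadd45a-KO and highest in DKO. It read 16.87, 17.43 and 16.49 in WT, 16.78, 16.32 and 16.63 in Gadd45a-KO, 17.32, 16.97 and 16.94 in Ing1-KO, and 17.72, 17.50 and 16.89 in DKO. The DKO and Ing1-KO arrays were above all Gadd45a-KO arrays and overlapped each other, and WT overlapped every group. WT replicate 2 was higher than all Ing1-KO arrays. The log2 fold change was 0.47 ± 0.18 over both backgrounds, with an adjusted p of 0.0933, and 0.79 ± 0.25 in DKO against Gadd45a-KO, with an adjusted p of 0.0553. With the slide as a block the second of these had an adjusted p of 0.0367. It also passed with quantile normalization (0.0188), centring on the median (0.0443), normexp (0.0353), the authors' values (0.0151) and the filter on all 12 arrays (0.0485). In 6 of 12 settings it did not pass. The first passed with other processing, at 0.65 (adjusted p of 0.0162) after quantile normalization, 0.51 (0.0492) after normexp background correction and 0.66 (0.0132) in the authors' values. Against WT the values were -0.35 ± 0.25 in Gadd45a-KO, 0.15 ± 0.25 in Ing1-KO and 0.44 ± 0.25 in DKO, none past the threshold.

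Retn rose in DKO against Gadd45a-KO. Its brighter probe read 16.85, 17.16 and 16.40 in WT, 16.32, 16.21 and 16.24 in Gadd45a-KO, 17.12, 16.57 and 16.82 in Ing1-KO, and 17.80, 17.06 and 16.78 in DKO. On this probe Gadd45a-KO was the lowest group and the tightest, with an SD of 0.06, and all its arrays were below all arrays of the other 3 genotypes. On the dimmer probe it overlapped WT, where replicate 3, at 16.23, lay below Gadd45a-KO replicates 1 and 3, at 16.31 and 16.25. On the brighter probe the rise in DKO against Gadd45a-KO was 1.94-fold, a log2 fold change of 0.95 ± 0.25 with an adjusted p of 0.0315. The other Retn probe had 0.80 ± 0.26 and an adjusted p of 0.0575 there, so that the probes agreed in direction and not in the call. The call was lost without any 1 of the Gadd45a-KO replicates or DKO replicate 1 or 2, at values of 0.66 to 1.03. It was also lost with only the arrays compared in the fit, with an adjusted p of 0.0646. Over both backgrounds the other probe had 0.40 ± 0.19 and an adjusted p of 0.15. The brighter probe had 0.49 ± 0.18 and an adjusted p of 0.0793, or 0.0483 with the slide as a block. It passed with quantile normalization, normexp and the authors' values too. Gadd45a-KO against WT had -0.55 ± 0.25 and an adjusted p of 1.00. Retn lies within 20 Mb of Ing1 on chromosome 8.

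Rbp4, the retinol carrier of the blood, had the lowest values in Gadd45a-KO. It read 15.97, 16.41 and 15.63 in WT, 15.72, 15.25 and 14.86 in Gadd45a-KO, 16.18, 15.88 and 16.09 in Ing1-KO, and 16.38, 16.15 and 16.00 in DKO. Every array without Ing1 was above every Gadd45a-KO array, and the WT arrays overlapped both, meeting Gadd45a-KO only at its highest array. In DKO against Gadd45a-KO Rbp4 rose 1.87-fold, by 0.90 ± 0.23 with an adjusted p of 0.0278. Leaving out Gadd45a-KO replicate 2 or 3 or DKO replicate 1 or 2 ended that call, at values of 0.69 to 0.92. With only the arrays compared in the fit it was lost too, with an adjusted p of 0.0617. Gadd45a-KO against WT had -0.73 ± 0.23, negative on all 3 slides, with an unadjusted p of 0.00791 and an adjusted p of 1.00. Over both backgrounds the value was 0.47 ± 0.16 with an adjusted p of 0.0644, or 0.0382 with the slide as a block. It passed with quantile normalization, centring on the median (0.0446) and the authors' values too.

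Rarres2, whose product chemerin is activated outside the cell, read 15.02, 15.09 and 14.85 in WT, 14.97, 14.67 and 14.29 in Gadd45a-KO, 15.19, 14.93 and 14.72 in Ing1-KO, and 15.34, 15.61 and 14.91 in DKO. All 4 genotypes overlapped. DKO against Gadd45a-KO had 0.65 ± 0.20 and an adjusted p of 0.0525, which was 0.0159 with the slide as a block. The adjusted p was 0.0457 with centring on the median and 0.0461 with the filter on all 12 arrays. Rarres2 lies within 20 Mb of Gadd45a on chromosome 6. The gene for the peptide apelin, Apln, read 9.07, 9.53 and 8.79 in WT, 9.11, 8.82 and 8.43 in Gadd45a-KO, 9.28, 9.01 and 8.98 in Ing1-KO, and 9.25, 9.73 and 9.02 in DKO. Its genotypes overlapped too, and no comparison passed. The nearest was DKO against Gadd45a-KO with 0.54 ± 0.24 and an adjusted p of 0.131.

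Cfd was the member with the smallest spread over the arrays, 1.69-fold from lowest to highest. It read 18.34, 18.85 and 18.15 in WT, 18.29, 18.09 and 18.45 in Gadd45a-KO, 18.23, 18.25 and 18.23 in Ing1-KO, and 18.61, 18.47 and 18.28 in DKO. WT alone spanned almost the whole range, with its top value in WT replicate 2, the dimmest array. Before the shift WT replicates 1, 2 and 3 read 349187, 301285 and 271259. Over both backgrounds the log2 fold change was -0.02 ± 0.12 with a 95% interval of -0.28 to 0.25, so a change of the size of that in Lep or Nampt lies outside it. No comparison of Cfd passed, and the sign of this value differed between normalizations.

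Counted over the 8 members, 2 rose in arrays without Ing1 against arrays with it, Lep and Nampt, where limma called 16% of all 31453 genes or unnamed probes (6.93% higher). In DKO against Gadd45a-KO 4 rose, Lep, Retn, Rbp4 and Nampt, where 15% of all were called (6.49% higher). In DKO against WT 1 rose, Nampt, against 0.162% of all. No member fell in any comparison. None passed in Ing1-KO against WT (0.00318% of all), DKO against Ing1-KO (0.00318%), Gadd45a-KO against WT (0%) or Gadd45a loss over both Ing1 backgrounds (0.00318%); at an unadjusted p under 0.05 these comparisons had 2706, 1103, 739 and 294 genes or probes. The median log2 fold change of the 8 members was 0.47 for Ing1 loss, against -0.04 for all genes, 0.78 in DKO against Gadd45a-KO, against -0.03, and 0.35 in DKO against WT, against -0.04. It was -0.34 in Gadd45a-KO against WT and 0.04 in Ing1-KO against WT, which share their WT arrays. Members whose arrays did not overlap numbered 1 higher for Ing1 loss (3.38% of all genes), 5 higher in DKO against Gadd45a-KO (16.5%), 2 higher in DKO against WT (9.66%), 1 higher in Ing1-KO against WT (7.24%), 1 higher in DKO against Ing1-KO (5.14%) and 1 lower in Gadd45a-KO against WT (2.6%). The last was Retn, on its brighter probe only.

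**Figure D2:**
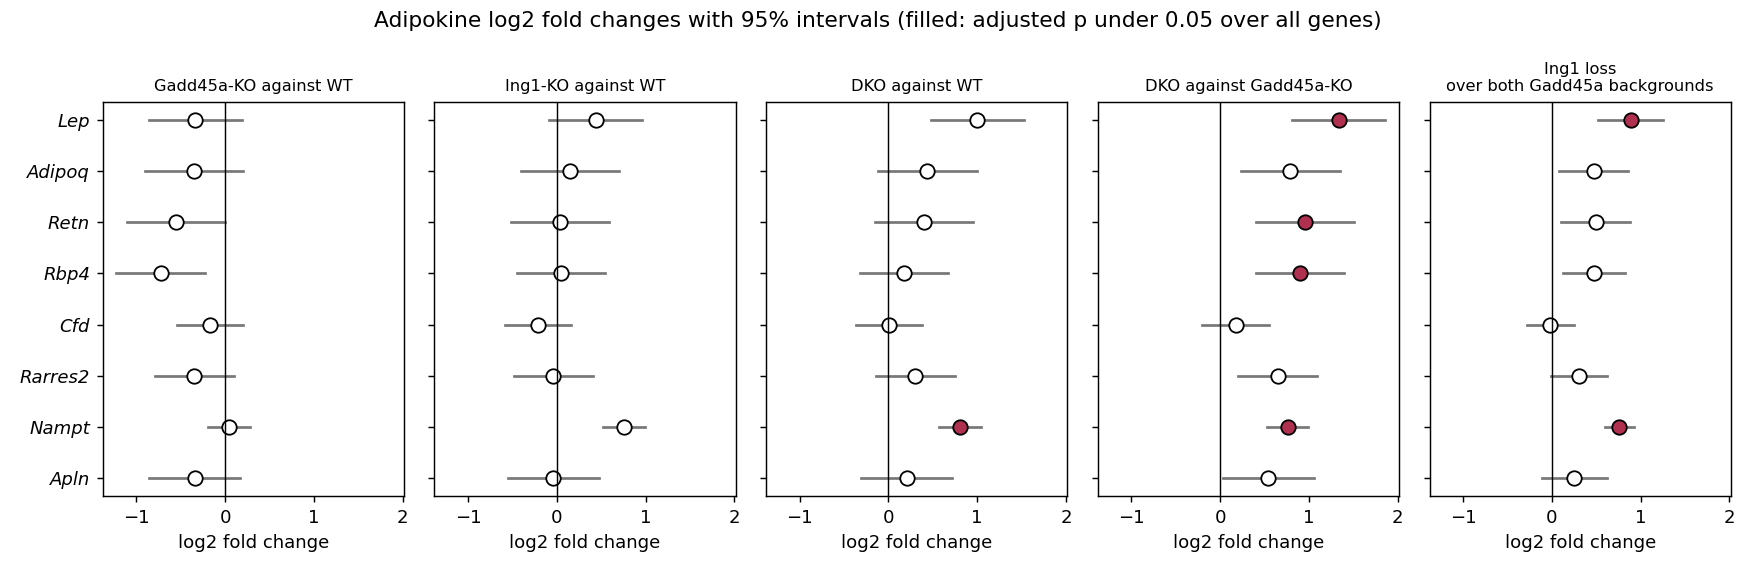
Log2 fold change of each adipokine gene in 5 comparisons, with its 95% interval; filled points have an adjusted p under 0.05 over all genes. Nampt and Lep are filled in the panel for Ing1 loss, and Lep, Retn, Rbp4 and Nampt in that for DKO against Gadd45a-KO.

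Whether Ing1 loss acted differently with and without Gadd45a was tested as an interaction. The effect without Gadd45a was higher than that with it for 7 of 8 members, by 0.90 ± 0.34 for Lep, 0.92 ± 0.36 for Retn, 0.85 ± 0.32 for Rbp4 and 0.69 ± 0.29 for Rarres2. Their unadjusted p lay between 0.0213 and 0.035, and the adjusted p was 0.728 for each, so none passed. Limma called 0% of all genes here, and 1866 had an unadjusted p under 0.05. Adipoq, Apln and Cfd had 0.64 ± 0.36, 0.58 ± 0.33 and 0.38 ± 0.24. On slide 2 the Ing1-KO array was below the WT array for Adipoq, Retn, Rbp4 and Apln, and on slides 1 and 3 above it. The WT array of slide 2 was WT replicate 2, the dimmest, and the order on slide 2 depends on the shift. Before the shift the 4 genes read 112888, 93536.4, 55468.9 and 470.123 there. In Ing1-KO replicate 2 they read 142949, 108388, 67044.2 and 572.972. The 75th percentiles of these 2 arrays were 455.634 and 797.694, so the unshifted readings are not on 1 scale and do not decide the order. For Lep and Nampt Ing1 loss was positive on all 3 slides in both backgrounds.

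**Figure D3:**
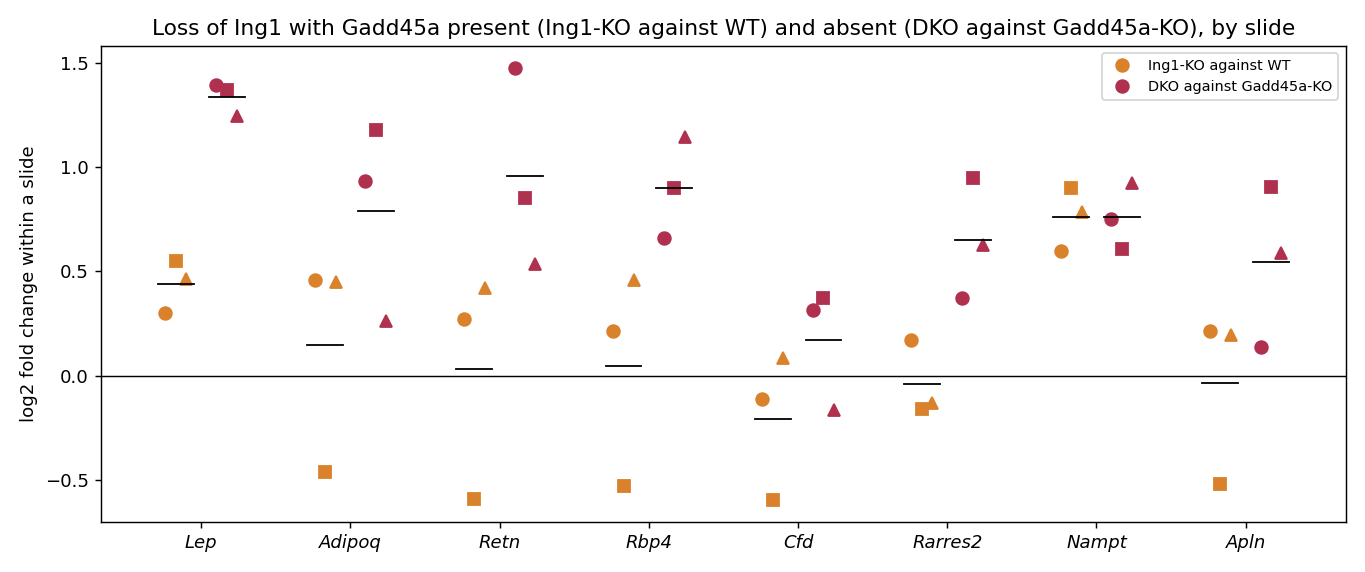
Log2 fold change of Ing1 loss within each slide (circle, square and triangle for slides 1, 2 and 3) with Gadd45a present and absent; horizontal lines are means over the 3 slides. Lep lies between 0.30 and 0.55 with Gadd45a and between 1.24 and 1.39 without it, and for Nampt both means are 0.76.

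White adipocyte markers were also higher in the arrays without Ing1. The 12 markers, none of them an adipokine of this set, had a mean log2 signal of 14.94 to 15.61 in WT, 14.77 to 15.22 in Gadd45a-KO, 15.39 to 15.57 in Ing1-KO and 15.44 to 15.86 in DKO. Their summed signal was 802085 to 1220560 in WT, 763786 to 939887 in Gadd45a-KO, 999266 to 1094610 in Ing1-KO and 1060120 to 1359220 in DKO. Of the 12, 5 rose for Ing1 loss, where 6.93% of all genes or probes were called higher. Among the 5 were the fatty acid transporter Cd36, by 0.65, and the acyl-CoA synthetase Acsl1, by 0.67, and the median of the 12 was 0.51. The calls numbered 3 without WT replicate 3, Gadd45a-KO replicate 3 or Ing1-KO replicate 1 and 11 without WT replicate 2. WT replicate 2 had a marker level of 15.61, above that of all Ing1-KO arrays. On this shifted scale its Rbp4 and Cfd were the highest of all arrays and its Adipoq and Retn the highest in WT. Its Nampt, 11.43, and its Lep, 11.06, were the lowest in WT. The top ranks depend on the shift, as the array was the dimmest, whereas its ranks above WT replicate 3 held before the shift too. Before the shift its Rbp4, Cfd, Adipoq and Retn read 55468.9, 301285, 112888 and 93536.4. In WT replicate 1 they read 67388.1, 349187, 125797 and 124593, and in WT replicate 3 47298.2, 271259, 86077.8 and 80854.1. Without WT replicate 2, 5 members passed for Ing1 loss, and without DKO replicate 3, 4 did. After scaling each array to these markers, which was added after seeing the data and moved the median of all genes for Ing1 loss to -0.53, Lep had 0.39 and Nampt 0.27, neither past the threshold, and Cfd fell by 0.51 with an adjusted p of 0.00692.

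**Figure D4:**
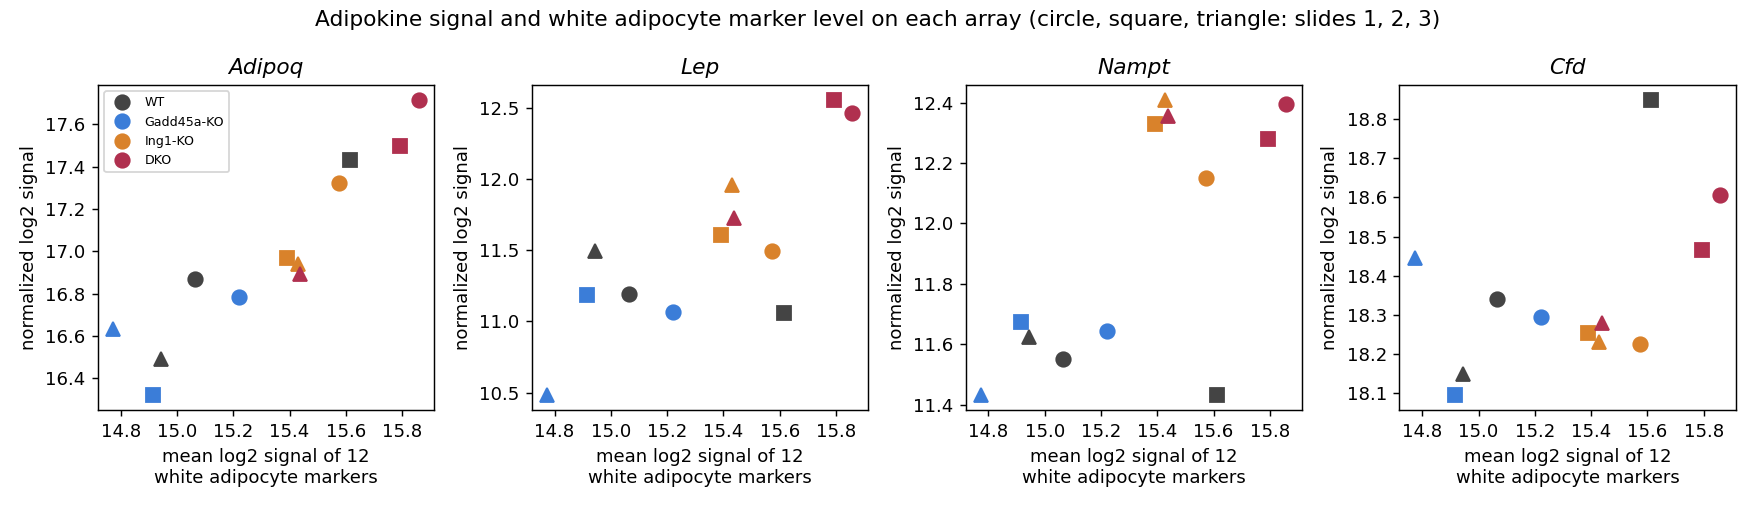
Normalized log2 signal of Adipoq, Lep, Nampt and Cfd (vertical) against the mean log2 signal of 12 white adipocyte markers (horizontal) on the 12 arrays, coloured by genotype, with symbols for slides. Adipoq is higher on arrays with more marker signal, and in the Nampt panel WT replicate 2 (dark square) sits at 11.43 with a marker level of 15.61.

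Brown adipocyte markers were highest in DKO, as was the mean of each of the 8 members, for Cfd by only 0.004 over WT. Their summed signal was 263004 to 358771 in DKO, 85651.5 to 233675 in WT, 74149.4 to 162543 in Gadd45a-KO and 97518.3 to 208046 in Ing1-KO, so that every DKO array lay above all others. All 7 had a positive value in DKO against WT, with a median of 1.21 and 0 called, in DKO against Gadd45a-KO, with a median of 1.30, and for Ing1 loss, with a median of 0.90. In DKO against Gadd45a-KO 3 rose, where 6.49% of all genes or probes were called higher. They were the uncoupling protein gene Ucp1, by 2.59 with an adjusted p of 0.0445, the fatty acid sensor Ppara, by 1.22, and the respiratory chain subunit Cox8b, by 1.30. For Ing1 loss Ppara rose, by 0.98, where 6.93% of all were called higher, and 5 markers did without WT replicate 2. Their part in the adipokine results was not tested.

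Markers of other cells also differed, where limma called 9.09% of all genes or unnamed probes lower for Ing1 loss. Of 8 T cell markers, 6 fell for Ing1 loss, with a median of -0.74 and summed signals of 26500.3 to 75915.7 in Ing1-KO and DKO against 68422.8 to 104932 in the other groups. With 1 array left out 0 to 8 were called, 0 of them without Gadd45a-KO replicate 3 or Ing1-KO replicate 1, 2 without WT replicate 3 or Ing1-KO replicate 3, and 3 without Gadd45a-KO replicate 2 or DKO replicate 1. Of 8 neutrophil markers 7 fell, with sums of 5232.63 to 45770.2 in Gadd45a-KO and of at most 4519.74 elsewhere. That count was 2 without WT replicate 1 or Ing1-KO replicate 3, 3 or 4 without number 1 or 2 of any of the 3 mutant genotypes, 3 with no filter and 4 with normexp or array row as a block. The neutrophil markers had a median of 2.84 in Gadd45a-KO against WT and -0.32 in Ing1-KO against WT, with 0 called in each. Of 7 liver markers 6 had a negative value for Ing1 loss, with a median of -1.22, and 1, Serpina1a, fell, while their sums overlapped between all genotypes. Of 7 mesothelial markers 3, among them Msln and Upk3b, were below the filter; the other 4 had a median of 1.51 in Gadd45a-KO against WT with 0 called. Of 7 endothelial and 10 progenitor markers 1 and 0 rose for Ing1 loss, against 6.93% of all genes or probes called higher. Skeletal muscle markers were highest in Ing1-KO replicate 1, DKO replicate 1 and Gadd45a-KO replicate 1, where their mean log2 signal was 9.17, 7.75 and 6.53, against at most 4.49 in WT. Without those 3 arrays, a setting added after seeing the data, Lep for Ing1 loss was 0.92 with an adjusted p of 0.0839 and Nampt 0.80 with an adjusted p of 0.0609, and 0 members passed in any comparison with 9 arrays left. The part of these cells in the adipokine results was not tested.

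Receptors for the adipokines were examined as a list of 14 genes, all measured. For Ing1 loss 5 fell and 0 rose, with a list median of 0.12, where 9.09% of all genes or probes were called lower and 6.93% higher. The 5 became 1 without Gadd45a-KO replicate 2, Ing1-KO replicate 1 or Ing1-KO replicate 3, and 2 or 3 without any other array except WT replicate 2, DKO replicate 1 and DKO replicate 3, which left 4. With centring on the median, no filter, the filter on all 12 arrays or array row as a block 3 fell. Without WT replicate 2, or with centring on the median, 3 rose. The leptin receptor Lepr fell by 0.71, with a mean of 10.21 without Ing1 and 10.92 with it and an adjusted p of 0.0473. The retinol binding protein receptor Stra6 fell by 0.83 and its relative Stra6l by 1.01. Both were dim, with means of 5.75 and 5.71 without Ing1, and each was not well above background on 1 of those 6 arrays. Cap1, which binds resistin in human cells, fell by 0.32, and the complement receptor C5ar2 by 0.65. In DKO against WT none of these passed. Downstream of leptin, 3 of 8 genes fell and 0 rose, with a median of -0.25: Lepr, the kinase gene Jak2 by 0.29, and Socs3, the feedback inhibitor that leptin induces, by 0.56 with an adjusted p of 0.0135. In this list 1 fell with centring on the median, no filter or array row as a block, and in 8 of 12 fits without 1 array, those without WT replicate 3, DKO replicate 2 or any array of Gadd45a-KO or Ing1-KO.

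Other secreted products of fat did not move one way. Of 26 measured, 3 rose and 4 fell for Ing1 loss, with a median of 0.06, against 6.93% and 9.09% of all genes or probes. Those that fell numbered 1 without Ing1-KO replicate 3 and 2 without WT replicate 1 or Ing1-KO replicate 1, and those that rose 5 without WT replicate 2 or DKO replicate 3. Angiotensinogen (Agt) rose by 1.11, the vessel growth factor Vegfa by 0.62 and the neuregulin Nrg4 by 0.56. The iron-chelator carrier Lcn2, also among the neutrophil markers, fell by 1.36, the stress cytokine Gdf15 by 0.79, the monocyte chemokine Ccl2 by 0.69 and the irisin precursor Fndc5 by 0.59. Among 9 relatives of adiponectin with a C1q domain, C1qtnf9 rose by 0.67 and C1qtnf12 by 0.64, and 0 fell; 1 rose in 7 of 12 fits without 1 array, those that left out numbers 1 and 3 of WT, numbers 2 and 3 of Gadd45a-KO and each Ing1-KO array.

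Genes that make or control the members were followed too. Of 13 transcription factors known to act on adipokine genes, 3 rose and 0 fell for Ing1 loss, with a median of 0.24: Klf15 by 0.77, the C/EBP factor Cebpa by 0.54 and the liver X receptor Nr1h3 by 0.34. Over all genes or probes 6.93% were called higher. In this list 1 rose with array row as a block and in 9 of 12 fits without 1 array, all but those without WT replicate 2, Ing1-KO replicate 2 or DKO replicate 3, whereas 7 rose without WT replicate 2 and 5 with quantile normalization, centring on the median, the filter on all 12 arrays or the slide as a block. Pparg, the master regulator of fat cells, had 0.55 ± 0.18 and an adjusted p of 0.0532, and it passed in DKO against Gadd45a-KO with 0.87. Of 7 genes for adiponectin assembly and secretion, Gstk1, which helps adiponectin form its disulfide-linked multimers, rose by 0.58 and 0 fell. Of 11 measured genes of NAD synthesis and use, the pathway of Nampt, Nnmt, which methylates nicotinamide, rose by 0.74 and Naprt, which makes NAD from nicotinic acid, by 0.54, while Qprt, of the route from tryptophan, fell by 0.71. Qprt was the 1 gene of this list called lower, against 9.09% of all genes or probes. In the list 0 were called lower in 5 of 12 fits without 1 array, those that left out numbers 1 and 3 of WT and of Ing1-KO, and number 2 of Gadd45a-KO. Sirt3, a mitochondrial enzyme that uses NAD, had 0.43 ± 0.14 and did not pass.

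The pathways around Rbp4, Cfd and Apln gave 14, 9 and 4 measured genes. Of the retinol genes 1 rose and 4 fell for Ing1 loss, with a median of -0.21: Rdh10, which oxidises retinol, rose by 0.37, and the genes that fell include the receptor Rara, by 0.32, beside Stra6 and Stra6l. Of all genes or probes 6.93% were called higher and 9.09% lower. Those that fell numbered 2 without WT replicate 1, Gadd45a-KO replicate 2 or Ing1-KO replicate 1, and 0 rose in 10 of 12 fits without 1 array, all but those without WT replicate 2 or DKO replicate 3. The filter on all 12 arrays left 10 retinol genes, without the dim Stra6 and Stra6l. Of these 2 rose and 2 fell, and the median was 0.33. With the slide as a block 4 rose and 4 fell. Of the alternative complement genes 3 fell and 0 rose, with a median of -0.28: properdin (Cfp) by 0.62, factor I (Cfi) by 0.91 and C5 (Hc) by 0.88, while Cfd itself had -0.02; 3 were called in all 12 fits without 1 array. Cfp is also made by myeloid cells, and the macrophage markers had 2 of 7 lower for Ing1 loss, with a median of -0.46. Of the apelin genes 0 passed, and the receptor Aplnr had 0.42 ± 0.24. In DKO against WT and in Ing1-KO against WT 0 genes of these 10 lists passed, and without the 3 arrays highest in muscle markers 0 passed for Ing1 loss.

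**Figure D5:**
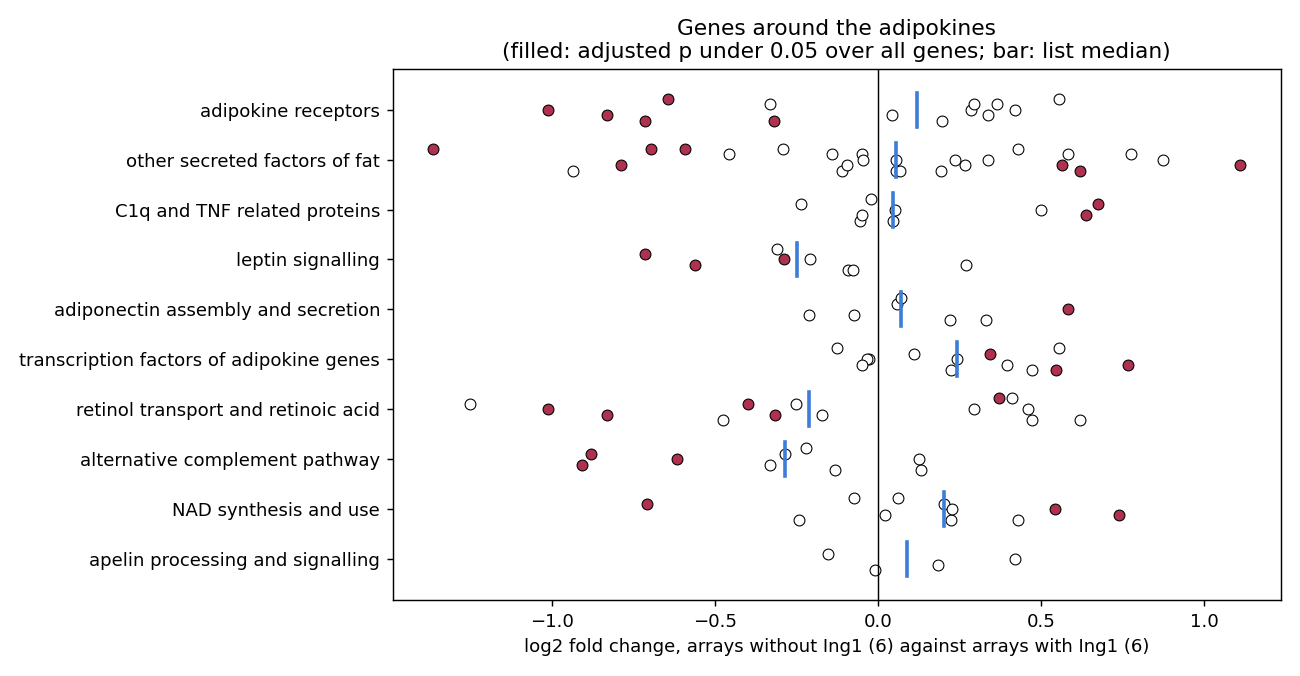
Log2 fold change of each gene in 10 lists around the adipokines, 6 arrays without Ing1 against 6 with it; filled points have an adjusted p under 0.05 over all genes and the vertical bar is the list's median. Medians lie between -0.28, for the alternative complement pathway, and 0.24, for transcription factors of adipokine genes.

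Named genes whose signal was most like each member's were ranked by Pearson's r over the 12 arrays among 15119 named genes, as a description. Nearest to Lep was Fam241a (r = 0.968), followed by Msrb3, Ubxn2a, Rragc and Mycbp. Nearest to Adipoq was Znrd1as (0.974), followed by Dgcr6, Emc9, Cyb5a and Apold1. For Retn they were Car5b, Mgst3 and Cldn22, for Rbp4 Gstm6 (0.986), Gpt and Lrpap1, for Cfd Ankrd52, Mrpl54 and Polr2l, for Rarres2 Lama4, Klhl13 and Klb, and for Apln Nes (0.978), Hfe and Tmem98. For Nampt the nearest 3 included P2ry1 (0.963) and Pcmt1 (0.959); after the genotype means were removed these fell to 0.485 and 0.695, whereas Znrd1as stayed at 0.967 with Adipoq and Gstm6 at 0.979 with Rbp4. The points share arrays, slides and the scaling, and the genes were picked as the highest of many.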

How the data were processed

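The deposited scanner files hold intensity values from Feature Extraction 10.7.3.1 per the file headers, of which the background-subtracted processed signal was used; the authors applied no scaling between arrays to it. The authors' own processed values, also deposited, are log2 (limma 3.26.9, per the submitters' processing notes), with column medians of 7.82 to 7.85 and a probe filter not given in the sources used here; they served as an alternative. Unmarked spots of a probe were averaged as log2, arrays were shifted to 1 common 75th percentile, and the filter asked for a signal well above background in 3 or more of the 12 arrays, with the probe of highest mean for each gene. Of 29150 probes with a RefSeq accession 27509 were named through the GRCm38.p6 gene table. Limma 3.58.1 (R 4.3.3; trend, robust) was fitted to all 12 arrays with 4 genotype means; tests are two-sided, adjusted by Benjamini-Hochberg over 31453 genes or probes, with a threshold of 0.05. The fit was tested on simulated data. Pools hold different animals, so their spread includes animals. Same-numbered arrays share a slide per the file headers; their deviations correlated by 0.11 on average, from -0.28 to 0.42 over 18 pairs. Named are all members, Ing1, Gadd45a, list genes past the threshold or with the 4 smallest p in DKO against WT, and the nearest 3 or 5 genes per member; 2 genes that the rule names are not reported here. Alternatives were quantile, median and normexp (offset 50) processing, the authors' values, other filters, every probe, only the arrays compared, slide or array row as a block, and each array left out. Members and lists were chosen with earlier results of these data known.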

Additional observations from a re-analysis of the deposited data

How the results depend on the processing

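Lep and Nampt kept a positive sign for Ing1 loss under every alternative run, from 0.39 and 0.27, and their calls there and in DKO against Gadd45a-KO held in all 12 fits without 1 array. With the replicate block, which is the slide, 4 members passed for Ing1 loss and 6 in DKO against Gadd45a-KO, 653 genes passed in DKO against WT, and no other member's call changed. Members called for Ing1 loss numbered 5 with quantile normalization and 5 with the authors' values (Lep, Nampt, Adipoq, Retn and Rbp4), and 4 with normexp (the same without Rbp4). In Ing1-KO against WT genes called numbered 5, 4, 2, 2 and 11 with quantile normalization, centring on the median, normexp, the authors' values and every probe tested, the last with 1 member, Nampt. In DKO against WT they numbered 202 with normexp, 25 with no filter, 3 with array row as a block and 1 with only the arrays compared, the last with 0 members. In DKO against Gadd45a-KO they numbered 3062 with no filter and 502, with 1 member, with only the arrays compared, where DKO against Ing1-KO had 0. Values that changed sign were small. For Cfd they were 0.00030 (Gadd45a-KO against WT, quantile), 0.070 and 0.043 (Ing1-KO against WT, quantile and the authors' values), and 0.10, 0.055, 0.0036 and 0.11 (Ing1 loss with quantile, centring, normexp and the authors' values). In Ing1-KO against WT Rarres2 had 0.054, 0.034, 0.025 and 0.079 with the same 4 settings, and Apln 0.038 with centring. Nampt had -0.011 in DKO against Ing1-KO with quantile, and -0.0021 in Gadd45a-KO against WT and 0.050 in the interaction with array row as a block. The 2 settings below were chosen after seeing the data. Without the 3 arrays highest in skeletal muscle markers, which leaves 9 arrays, 0 members passed in any comparison and 1, 1, 0, 1 and 0 genes in DKO against WT, DKO against Gadd45a-KO, DKO against Ing1-KO, Ing1 loss and Gadd45a loss; Retn and Rbp4 had -0.11 and -0.020 in Ing1-KO against WT, Cfd -0.074 in DKO against WT and Nampt -0.051 in DKO against Ing1-KO. Scaling to white adipocyte markers gave 2538, 16723, 0, 16735 and 0 genes in the same comparisons and 0, 1, 0, 1 and 0 members, and moved the median of all genes to -0.53, -0.76, -0.22, -0.53 and 0.00. Signs then turned for Cfd (0.069) in Gadd45a-KO against WT, for Adipoq, Retn and Rbp4 (-0.11, -0.23 and -0.21) in Ing1-KO against WT, and for Adipoq, Retn, Rbp4, Cfd, Rarres2 and Apln (-0.051, -0.084, -0.32, -0.49, -0.19 and -0.29) in DKO against WT. They also turned for Cfd, Rarres2 and Apln (-0.55, -0.079 and -0.18) in DKO against Gadd45a-KO, for Rbp4, Cfd and Nampt (-0.10, -0.019 and -0.18) in DKO against Ing1-KO, for Adipoq, Rbp4, Rarres2 and Apln (-0.023, -0.018, -0.19 and -0.24) for Ing1 loss, and for Cfd (-0.088) in the interaction. With 1 array left out, members called ranged from 2 to 5 for Ing1 loss, 2 to 6 in DKO against Gadd45a-KO, 0 to 2 in DKO against WT and 0 to 1 in Ing1-KO against WT, and genes called from 1901 to 7087, 539 to 7065, 1 to 3307 and 1 to 16. Genes called then ranged from 0 to 1 in Gadd45a-KO against WT, 0 to 3 in DKO against Ing1-KO and 1 to 2 for Gadd45a loss. Signs also turned within ranges that lay, in Gadd45a-KO against WT, from -0.32 to 0.034 for Cfd and -0.0041 to 0.12 for Nampt; in Ing1-KO against WT, from -0.072 to 0.40 for Adipoq, -0.17 to 0.21 for Retn, -0.14 to 0.25 for Rbp4, -0.16 to 0.072 for Rarres2 and -0.21 to 0.16 for Apln; in DKO against WT, from -0.011 to 0.38 for Rbp4 and -0.14 to 0.21 for Cfd; in DKO against Ing1-KO, from -0.026 to 0.10 for Nampt; for Ing1 loss, from -0.093 to 0.082 for Cfd; and in the interaction, from -0.076 to 0.056 for Nampt. The cause of these changes was not tested. Counts in the lists moved too, as for white adipocyte markers, with 8 or 9 called under 6 planned settings and 3 to 11 with 1 array left out. The number of arrays, 3 per genotype, limits the precision, and all members were well above background.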
